A study of Mus musculus with 9 samples.

Results

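The genes described here were 10 genes of the cartilage and bone lineages: the transcription factors Sox9, Sox5 and Sox6, the cartilage matrix genes Acan and Comp, the osteoblast transcription factors Runx2 and Sp7, and the mineralization and bone matrix genes Alpl, Spp1 and Bglap. They were chosen by name, with earlier results of these data known, and all 10 were among the 54532 genes of the count table. The data were bulk mRNA sequencing of adipose-derived stem cells (ASCs) cultured from C57BL/6 mice, with 3 groups of 3 libraries each. The groups were Sub-ASCs from subcutaneous, Ab-ASCs from abdominal and PVASCs from perivascular adipose tissue, which is the fat around blood vessels. All 3 groups were passaged cultures kept in stem cell medium, and the labels name no differentiation medium for them. No age or sex was given for the mice, and nothing said whether libraries of a group came from separate mice or cultures, so the p-values below measure the spread between these libraries, which may be technical.

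Cells of mesenchymal cultures can form cartilage, bone or fat under inducing media. Sox9 is the transcription factor that starts the cartilage program, and Sox5 and Sox6, which lack an activation domain of their own, bind with it at cartilage genes such as Col2a1 and Acan. In the bone lineage Runx2 acts first, Sp7 (Osterix) acts downstream of it, and the enzyme Alpl and the secreted proteins Spp1 (osteopontin) and Bglap (osteocalcin) are used as markers of progressively later osteoblast stages. Several of these genes are also used outside the skeleton: Spp1 is made by macrophages and smooth muscle cells, and Alpl by liver and kidney.

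Between 20524173 and 29881036 reads were counted per library. Levels are given as CPM, the read count scaled to the library size after TMM normalization, and 3 reads in a library corresponded to 0.0917 to 0.161 CPM. All 10 stromal markers had a mean of at least 1 CPM in every group, but Ly6a, which encodes the stem cell antigen of mouse ASCs, stood at 2049 ± 115 CPM in Sub-ASCs, 21.8 ± 3.42 CPM in Ab-ASCs and 111 ± 4.45 CPM in PVASCs (SD, n = 3). Of these markers, 8 were lower and 2 higher in PVASCs and 9 were lower and 1 higher in Ab-ASCs, each against Sub-ASCs. In the test described below, 70.4% and 75.3% of all genes passed in these comparisons. Thy1, the gene for CD90, was at 332 ± 11.4, 231 ± 24.2 and 883 ± 19.1 CPM in Sub-ASCs, Ab-ASCs and PVASCs, and Eng, the gene for CD105, at 108 ± 4.48, 145 ± 10.1 and 328 ± 10.6 CPM. Pecam1, the endothelial gene for CD31, was read in every group, at 45.3 ± 1.71, 12.5 ± 1.02 and 180 ± 2.26 CPM in the same order. Ab-ASC replicate 1 stood apart from the other libraries of its group, with a chi-square of 17.4 and 27.6 per degree of freedom against them, beside 4.10 between these. In bulk samples, fewer cells of a type and less RNA per cell cannot be told apart.

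Most of the 10 genes differed between depots, as did most of the transcriptome. Bglap had too few reads to test, and 9 genes were tested among 16526 by edgeR's quasi-likelihood test at an adjusted p of 0.05. Between PVASCs and Sub-ASCs, all 9 passed, 6 of them higher (Spp1, Sox9, Sp7, Sox6, Acan and Runx2) and 3 lower (Sox5, Alpl and Comp) in PVASCs. Of all genes tested in that comparison, 70.4% passed, 34.7% higher and 35.7% lower in PVASCs. Between Ab-ASCs and Sub-ASCs, 7 of the 9 passed, 5 of them higher (Spp1, Sp7, Sox9, Runx2 and Acan) and 2 lower (Sox5 and Comp) in Ab-ASCs, against 75.3% of all genes, 37.0% higher and 38.3% lower. Between PVASCs and Ab-ASCs, 7 of the 9 passed, with Spp1, Sox5, Sox6 and Acan higher and Runx2, Sp7 and Alpl lower in PVASCs, against 56.9% of all genes, 24.7% higher and 32.1% lower. The CPM ranges of the groups did not overlap for 9 of the 9 genes between PVASCs and Sub-ASCs, beside 77.3% of all genes tested. They did not overlap for 7 between Ab-ASCs and Sub-ASCs, beside 76.5%, and for 7 between PVASCs and Ab-ASCs, beside 63.9%.

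By size, 6 of the 9 genes also reached 1 or more on the log2 scale, in either direction, between PVASCs and Sub-ASCs, where 32.2% of all genes did so. The count was 6 between Ab-ASCs and Sub-ASCs (37.8% of all genes) and 3 between PVASCs and Ab-ASCs (15.4%). Over the 9 genes, the log2 fold changes had a median of 1.26 in PVASCs over Sub-ASCs and 1.04 in Ab-ASCs over Sub-ASCs, beside medians of -0.01 and -0.03 over all genes tested. It was 0.02 in PVASCs over Ab-ASCs, beside -0.06. Each pair of comparisons shares a group, so they are not independent of each other.

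**Figure D1:**
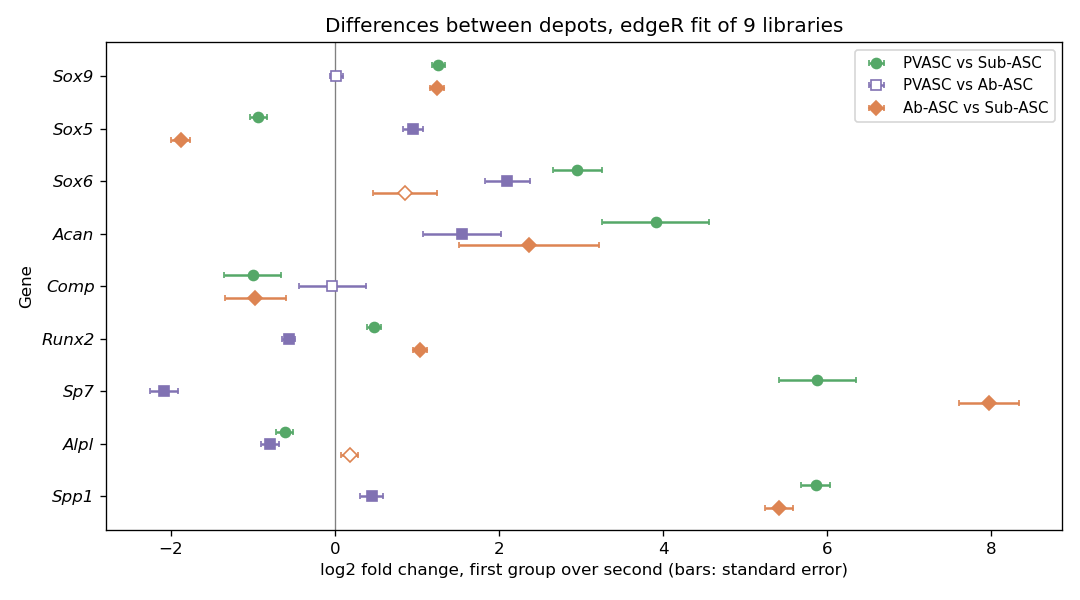
Log2 fold changes of the 9 tested genes in the 3 comparisons, as first group over second, with bars for the standard error. Filled symbols passed the test at an adjusted p of 0.05 and open symbols did not. Spp1 and Sp7 lie beyond 5 against Sub-ASCs in both other groups, while Sox9 and Comp lie near 0 between PVASCs and Ab-ASCs.

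Among the chondrogenic transcription factors, Sox9 (chr11:112782224-112787760, plus strand, GRCm38) was at 18.1, 16.1 and 15.2 CPM in the Sub-ASC libraries. It was at 35.7, 40.1 and 40.8 CPM in the Ab-ASC libraries and 41.5, 39.2 and 37.5 CPM in the PVASC libraries. The Ab-ASC and PVASC ranges overlapped and both lay above Sub-ASCs. The log2 fold change over Sub-ASCs was 1.26 ± 0.08 (SE) in PVASCs (adjusted p = 2.67e-08) and 1.24 ± 0.08 in Ab-ASCs (adjusted p = 3.31e-08). Between PVASCs and Ab-ASCs the log2 difference was 0.02 ± 0.08, which did not pass (adjusted p = 0.870), and its sign changed when Ab-ASC replicate 1 or PVASC replicate 1 was left out (-0.04 and -0.02).

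Its partners did not share this order of depots, nor did they share one with each other. Sox5 (chr6:143828425-144781977, minus strand) was highest in Sub-ASCs, with 10.1, 11.8 and 10.3 CPM, against 2.58, 3.16 and 2.94 CPM in Ab-ASCs and 5.75, 5.63 and 5.44 CPM in PVASCs. The 3 ranges were separate, and all 3 differences passed, with log2 fold changes of -1.88 ± 0.12 in Ab-ASCs over Sub-ASCs (adjusted p = 1.74e-08), -0.93 ± 0.10 in PVASCs over Sub-ASCs (adjusted p = 3.98e-06) and 0.95 ± 0.12 in PVASCs over Ab-ASCs (adjusted p = 4.66e-05). Sox5 shares 1330 exon bases with the antisense gene Sox5os1, on which at most 1 read was counted in a library. How reads on bases shared with another gene were assigned was not tested, here or for Runx2 and Spp1 below.

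Sox6 (chr7:115470872-116038796, minus strand) was highest in PVASCs, with 2.60, 2.61 and 2.35 CPM from 74 to 85 reads per library. Ab-ASCs had 0.698, 0.489 and 0.580 CPM and Sub-ASCs 0.515, 0.314 and 0.153 CPM, from 4 to 13 reads each. Every PVASC library thus lay above the other 6, whose ranges overlapped. Sox6 was higher in PVASCs by a log2 fold change of 2.95 ± 0.30 over Sub-ASCs (adjusted p = 1.88e-06) and 2.10 ± 0.28 over Ab-ASCs (adjusted p = 5.14e-05). The difference of 0.85 ± 0.39 between Ab-ASCs and Sub-ASCs did not pass (adjusted p = 0.0665). It passed when Sub-ASC replicate 1 was left out (log2 1.31, adjusted p = 0.0151), in a range of adjusted p over the alternatives of 0.0151 to 0.245.

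The cartilage matrix genes of the set were barely read in any group. Acan (chr7:79053483-79115099, plus strand) encodes aggrecan, the large proteoglycan that gives cartilage its resistance to compression. Its counts were 1, 0 and 1 reads in Sub-ASCs, 2, 2 and 6 reads in Ab-ASCs and 17, 11 and 16 reads in PVASCs, or 0.467 ± 0.0819 CPM in PVASCs (SD, n = 3). The PVASC libraries were all above the others. From the summed reads, Acan was 17.6 times higher in PVASCs than in Sub-ASCs (95% counting interval 4.59 to 150) and 5.90 times higher in Ab-ASCs than in Sub-ASCs (1.26 to 55.4), where counting intervals cover counting error only.

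The difference of Acan between PVASCs and Sub-ASCs passed with an adjusted p of 0.000166. The differences of PVASCs from Ab-ASCs (log2 1.55 ± 0.48, adjusted p = 0.0155) and of Ab-ASCs from Sub-ASCs (adjusted p = 0.0245) were not stable. DESeq2 gave 0.0786 and 0.0730 for them, without the low-count filter the second had 0.0508, and over all alternatives the adjusted p ran from 0.00978 to 0.0786 and from 0.0196 to 0.151. The first was lost without Ab-ASC replicate 1, Ab-ASC replicate 2 or PVASC replicate 1, and the second without Sub-ASC replicate 2 or Ab-ASC replicate 3. With each library left out in turn, the log2 fold change of PVASCs over Ab-ASCs ran from 1.25 to 2.21, the latter without Ab-ASC replicate 3, and that of Ab-ASCs over Sub-ASCs was 1.70 without the same library.

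Comp (chr8:70373558-70382066, plus strand) encodes cartilage oligomeric matrix protein, which binds collagens in cartilage and tendon. It went the other way, with 12, 17 and 13 reads in Sub-ASCs, 6, 7 and 5 in Ab-ASCs and 12, 8 and 6 in PVASCs, or means of 0.560 ± 0.0944, 0.285 ± 0.0544 and 0.276 ± 0.0881 CPM (SD, n = 3). All Sub-ASC libraries lay above the others on the CPM scale. Comp was lower by a log2 fold change of -1.0 ± 0.35 in PVASCs (adjusted p = 0.0209) and -0.97 ± 0.37 in Ab-ASCs (adjusted p = 0.0325) than in Sub-ASCs. Neither passed with DESeq2 (adjusted p = 0.115 and 0.134) or without the low-count filter (0.0897 and 0.130), and over all alternatives the adjusted p ran from 0.0189 to 0.115 and from 0.0265 to 0.134. The first was lost without Sub-ASC replicate 2, PVASC replicate 2 or PVASC replicate 3, and the second without Sub-ASC replicate 1, Sub-ASC replicate 2 or any 1 of the Ab-ASC libraries. PVASCs and Ab-ASCs differed in Comp by -0.03 ± 0.41 (adjusted p = 0.965).

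The osteoblast transcription factors stood highest in Ab-ASCs. Runx2 (chr17:44495987-44814797, minus strand) was at 19.3, 23.3 and 21.8 CPM in Sub-ASCs, 41.0, 43.1 and 48.5 CPM in Ab-ASCs and 29.7, 31.2 and 28.8 CPM in PVASCs, so that the 3 groups were separate. Its log2 fold change was 1.04 ± 0.09 in Ab-ASCs over Sub-ASCs (adjusted p = 2.58e-07), 0.48 ± 0.09 in PVASCs over Sub-ASCs (adjusted p = 0.000318) and -0.57 ± 0.08 in PVASCs over Ab-ASCs (adjusted p = 0.000125). Runx2 shares 519 exon bases with the antisense gene Runx2os1, on which 3 to 25 reads were counted per library, and the library kit does not mark strand.

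Sp7 (chr15:102356606-102367182, minus strand) followed the same order of depots with a wider spread. It had 0, 0 and 2 reads in Sub-ASCs, 140, 170 and 191 reads in Ab-ASCs (7.86 ± 0.566 CPM; SD, n = 3) and 52, 62 and 59 reads in PVASCs (1.86 ± 0.257 CPM). No 2 groups overlapped. From the summed reads, Sp7 was 295 times higher in Ab-ASCs (95% counting interval 81.4 to 2447) and 69.2 times higher in PVASCs (18.9 to 576) than in Sub-ASCs, with adjusted p-values of 7.97e-10 and 1.94e-07. Both sizes depend on the 2 reads of Sub-ASC replicate 3. Without that library the fitted log2 fold changes went from 7.97 and 5.88 to 10.66 and 8.58, which are no bounds, because the remaining Sub-ASC libraries were at 0. PVASCs were lower than Ab-ASCs by a log2 fold change of -2.09 ± 0.17 (adjusted p = 8.84e-07).

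**Figure D2:**
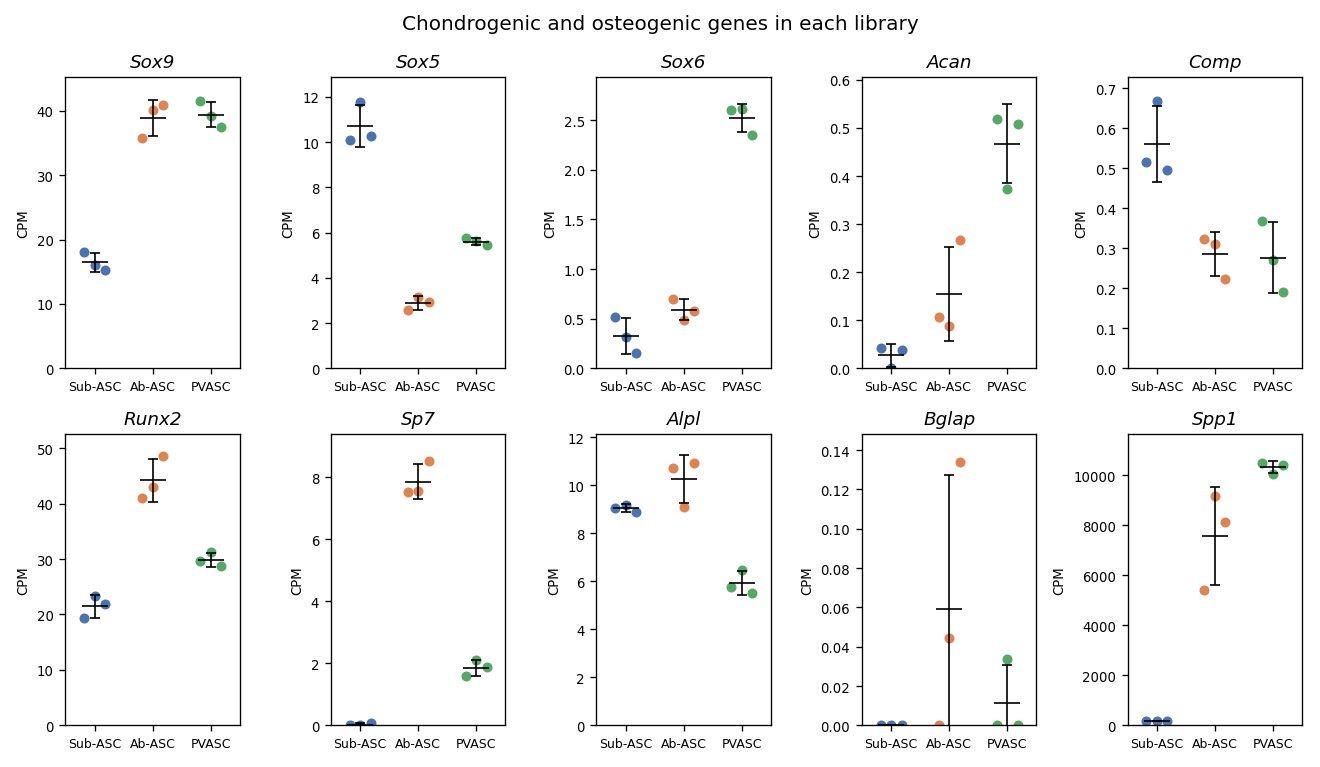
CPM (linear axis from 0, a separate scale for each gene) of the 10 genes in the 9 libraries, with a black line for the mean of 3 libraries and bars for the SD. Runx2 and Sp7 are highest in Ab-ASCs, Sox6 and Acan in PVASCs, Sox5 and Comp in Sub-ASCs, and Spp1 is near 178 CPM in Sub-ASCs against 5400 to 10508 CPM in the others.

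The markers of osteoblast maturation did not move together. Alpl (chr4:137741733-137796384, minus strand) encodes the tissue-nonspecific alkaline phosphatase, which breaks down the mineralization inhibitor pyrophosphate. It was at 9.06, 9.20 and 8.89 CPM in Sub-ASCs, 10.7, 9.11 and 10.9 CPM in Ab-ASCs and 5.78, 6.47 and 5.50 CPM in PVASCs, so that PVASCs were below both other groups. The log2 fold change in PVASCs was -0.61 ± 0.10 over Sub-ASCs (adjusted p = 0.000192) and -0.79 ± 0.10 over Ab-ASCs (adjusted p = 5.14e-05). Ab-ASCs and Sub-ASCs overlapped and differed by 0.18 ± 0.10 (adjusted p = 0.130). This difference passed without Ab-ASC replicate 2 (0.27, adjusted p = 0.0370), with adjusted p over the alternatives of 0.0370 to 0.319.

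Spp1 (chr5:104435118-104441050, plus strand), a secreted phosphoprotein that binds mineral and integrins, was at 172, 192 and 170 CPM in Sub-ASCs. It was at 5400, 9180 and 8139 CPM in Ab-ASCs and at 10508, 10050 and 10407 CPM in PVASCs. The 3 groups were separate, and Ab-ASC replicate 1 was the lowest of its group. Ranked by reads, Spp1 was the gene with the most reads in PVASC replicates 1 and 3 and had rank 2 in replicate 2. It had ranks 10, 4 and 5 in Ab-ASCs and ranks 1098, 954 and 1120 in Sub-ASCs. It took 1.09% to 1.15% of all counted reads in PVASCs, 0.490% to 0.875% in Ab-ASCs and 0.0166% to 0.0188% in Sub-ASCs.

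The log2 fold change of Spp1 over Sub-ASCs was 5.86 ± 0.17 in PVASCs (adjusted p = 1.35e-11) and 5.41 ± 0.17 in Ab-ASCs (adjusted p = 2.32e-11). PVASCs were higher than Ab-ASCs by a log2 fold change of 0.45 ± 0.14 (adjusted p = 0.0172), which went to 0.25 without Ab-ASC replicate 1 and did not pass without PVASC replicate 1 (adjusted p = 0.0502), in a range over the alternatives of 3.92e-25 to 0.0502. Spp1 shares 309 of its exon bases (18.8%) with the gene Gm42793 of the same strand, which had 1 to 3 reads per library in Sub-ASCs, 43 to 114 in Ab-ASCs and 221 to 277 in PVASCs. Among other cell types that make Spp1, 8 macrophage and haematopoietic markers, each with a mean of at least 1 CPM in every group, summed to 280 to 285 CPM in Sub-ASCs, 323 to 423 in Ab-ASCs and 309 to 318 in PVASCs. Lyz2 made up most of this sum, at 163 ± 2.44, 271 ± 41.2 and 249 ± 3.03 CPM. Of the 8 genes, 6 were lower and 2 higher than in Sub-ASCs both in PVASCs and in Ab-ASCs, beside 70.4% and 75.3% of all genes called. Cd68 was at 32.8 ± 1.30, 23.1 ± 2.63 and 11.6 ± 0.607 CPM. The 8 smooth muscle markers, all of them read in every group, summed to 93.0 to 98.2 CPM in Sub-ASCs, 4653 to 5745 in Ab-ASCs and 2816 to 2961 in PVASCs. Their part in the level of Spp1 was not tested.

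Bglap (chr3:88383501-88384464, minus strand), which encodes the vitamin K-dependent bone protein osteocalcin, had 0 reads in all 3 Sub-ASC libraries, 0, 1 and 3 in Ab-ASCs and 0, 1 and 0 in PVASCs. All libraries were at or under the limit of 3 reads, so no fold is given and no difference was detectable at this depth. Bglap is uncertain in another way, since it lies beside 2 near copies on the same strand. Bglap2 had 1, 2 and 0 reads in Sub-ASCs, none in Ab-ASCs and 4, 3 and 3 in PVASCs, and Bglap3 had no read in Sub-ASCs, 1 in Ab-ASCs and 1, 6 and 4 in PVASCs. The longer transcript of Bglap, of 440 bases, holds 391 stretches of 50 bases, and 292 of them are also in the transcript of Bglap2. A read of at most 50 bases within such a stretch matches both genes equally, while a longer read can reach a differing base.

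The coding sequences, of 285 bases each in GENCODE M21 (GRCm38), differ at 4 bases between Bglap and Bglap2, at 13 between Bglap and Bglap3 and at 9 between Bglap2 and Bglap3. Coding bases 184 to 273 are shown as the 90-base stretch with the most differing positions, 7 of the 13 in the coding sequence. Capitals mark the 7 positions at which the 3 genes are not all alike, and the stretches lie on the minus strand at chr3:88383650-88383739, chr3:88377885-88377974 and chr3:88368771-88368860.
Bglap: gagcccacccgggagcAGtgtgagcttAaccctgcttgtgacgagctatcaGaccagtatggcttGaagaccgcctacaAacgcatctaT
Bglap2: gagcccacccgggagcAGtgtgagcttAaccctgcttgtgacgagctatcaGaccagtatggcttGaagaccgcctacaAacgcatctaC
Bglap3: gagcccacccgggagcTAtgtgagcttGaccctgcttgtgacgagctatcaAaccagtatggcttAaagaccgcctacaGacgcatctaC

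Spp1 and Bglap, the most and the least read of the 10 genes in PVASCs, are both known targets of Runx2. RefSeq start sites were at hand for 7 of the 10 genes, in 14 windows, and not for Sox9, Comp and Sp7. The 250 bases before the start of each of these 2 genes are shown (RefSeq, GRCm38.p6), 5′ to 3′ on the strand of the gene, with the RUNX core motif ACCACA in capitals. Spp1 is on the plus strand at chr5:104434861-104435110 and Bglap on the minus strand at chr3:88384467-88384716.
Spp1: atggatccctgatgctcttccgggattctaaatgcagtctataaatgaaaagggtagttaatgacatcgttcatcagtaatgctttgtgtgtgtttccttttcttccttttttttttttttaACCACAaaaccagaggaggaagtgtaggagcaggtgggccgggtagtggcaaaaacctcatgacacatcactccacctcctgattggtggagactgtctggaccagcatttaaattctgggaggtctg
Bglap: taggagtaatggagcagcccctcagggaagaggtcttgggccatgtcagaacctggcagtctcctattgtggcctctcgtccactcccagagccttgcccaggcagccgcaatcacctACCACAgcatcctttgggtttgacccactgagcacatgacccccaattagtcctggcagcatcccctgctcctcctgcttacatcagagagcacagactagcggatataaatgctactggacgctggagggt

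Each window holds the motif once, starting 128 bases before the start of Spp1 and 132 bases before that of Bglap. The search took ACCACA and its reverse complement TGTGGT, and 14.0% of the 32851 RefSeq windows, of the 250 bases before a start, hold at least 1 of them. Of the 14 windows of the 10 genes, 5 do, which are those of Spp1, Bglap and Runx2 and 2 of Sox6. A match is a description of the letters, not a site.

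Compared per length, the 10 genes spanned a wide range of levels. FPKM was computed from the counts, the listed exon length and the library total. Spp1 came first in every group, at 106 ± 7.49 FPKM in Sub-ASCs, 4309 ± 1203 in Ab-ASCs and 6839 ± 184 in PVASCs (SD, n = 3), followed by Sox9, Runx2 and Alpl. In PVASCs these were at 10.4 ± 0.533, 3.69 ± 0.142 and 1.60 ± 0.130 FPKM, in separate ranges. In Sub-ASCs the ranges of Runx2 (2.14 to 2.59 FPKM) and Alpl (2.15 to 2.24) overlapped.

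Below Alpl the order depended on the depot. In Ab-ASCs, Sp7 was next at 2.16 ± 0.179 FPKM, within the range of Alpl (2.15 to 2.55), and in PVASCs it was next at 0.596 ± 0.0804 FPKM, above Sox5 at 0.426 ± 0.0119. In Sub-ASCs, Sox5 was next at 0.729 ± 0.0650 FPKM and Sp7 was among the lowest. Acan was at 0.0683 ± 0.0122 FPKM in PVASCs, where its range overlapped that of Comp (0.0704 to 0.135). Comp, Sox6 and Acan were all under 0.25 FPKM in every library.

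**Figure D3:**
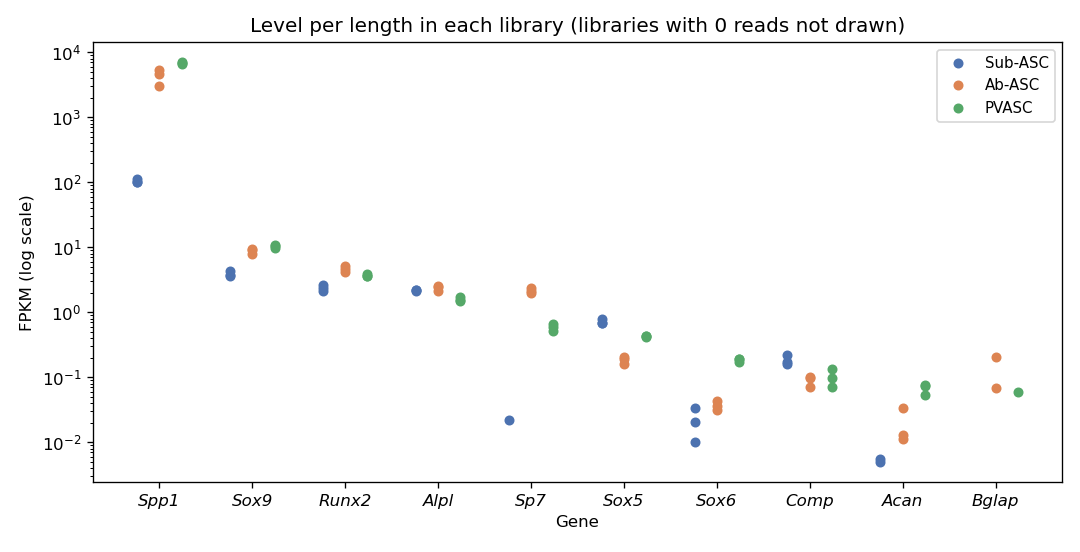
FPKM (log axis) of the 10 genes in each of the 9 libraries, ordered from left to right by roughly falling level. Libraries with 0 reads are not drawn, which removes 2 Sub-ASC points of Sp7, 1 of Acan and 6 of the 9 points of Bglap. Spp1 lies far above the other genes in every group.

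Ratios of 2 genes within a library do not depend on how libraries are scaled. The ratio of Sox9 to Sox5, in FPKM, was 4.74 to 6.23 in Sub-ASCs, 44.2 to 48.3 in Ab-ASCs and 24 to 25.1 in PVASCs, so the partners were in different proportion in each depot. The ratio of Sox5 to Sox6 was 20.2 to 69.4 in Sub-ASCs, 3.81 to 6.66 in Ab-ASCs and 2.22 to 2.38 in PVASCs. In the bone lineage, the ratio of Runx2 to its downstream factor Sp7 was 2.10 to 2.19 in Ab-ASCs and 5.72 to 7.17 in PVASCs, and could not be formed in Sub-ASCs. Runx2 over Sox9 was 0.335 to 0.373 in PVASCs, below the overlapping ranges of Ab-ASCs (0.502 to 0.556) and Sub-ASCs (0.499 to 0.680). The ratio of Spp1 to Alpl was 46.5 to 51.1 in Sub-ASCs, 1231 to 2465 in Ab-ASCs and 3799 to 4628 in PVASCs.

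Other genes of the pathways were taken from lists of 25 cartilage genes, 25 bone genes and 30 lineage regulators. Of the cartilage genes, 16 were tested. In PVASCs over Sub-ASCs, 7 were higher, 7 lower and 2 did not pass (median log2 -0.11), in PVASCs over Ab-ASCs the counts were 6, 5 and 5 (median 0.16), and in Ab-ASCs over Sub-ASCs 7, 4 and 5 (median 0.19). Over all genes tested, 70.4%, 56.9% and 75.3% passed in these comparisons, with medians of -0.01, -0.06 and -0.03.

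Col2a1, the main collagen of cartilage and a target of Sox9, had 0, 1 and 3 reads in Sub-ASCs, 1, 3 and 0 in Ab-ASCs and 336, 337 and 368 in PVASCs (11.1 ± 0.760 CPM; SD, n = 3). PVASCs were apart from both other groups (log2 7.58 ± 0.33 over Sub-ASCs, adjusted p = 4.99e-10, and 7.36 ± 0.34 over Ab-ASCs, adjusted p = 4.15e-09). Sox9 itself did not separate PVASCs from Ab-ASCs, whereas Sox6 was highest in PVASCs, at 2.52 CPM against 0.327 in Sub-ASCs and 0.589 in Ab-ASCs. The part of either factor in the level of Col2a1 was not tested. Col11a1, a minor fibrillar collagen of cartilage, rose from 0.199 ± 0.0329 CPM in Sub-ASCs to 8.24 ± 1.43 in Ab-ASCs and 51.3 ± 2.74 in PVASCs, and all 3 differences passed (the largest adjusted p was 1.29e-09). Col10a1, the collagen of hypertrophic chondrocytes, had 2 reads in all Sub-ASC libraries together, 15 in Ab-ASCs and 192 in PVASCs, a ratio of 76.8 between PVASCs and Sub-ASCs (95% counting interval 21 to 639).

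Prg4 (lubricin), which lubricates joint surfaces, was at 343 ± 11.7 CPM in Sub-ASCs against 1.84 ± 0.504 in Ab-ASCs and 2.74 ± 0.269 in PVASCs (log2 -7.56 ± 0.12 and -6.97 ± 0.11; adjusted p = 6.63e-14 and 6.21e-14). Cilp, a matrix protein of cartilage, was highest in Ab-ASCs, at 4.02 ± 0.641 CPM, against 0.388 ± 0.0833 in Sub-ASCs and 0.117 ± 0.0653 in PVASCs. Matn3 had 1 read in Sub-ASCs together, 63 in Ab-ASCs and 55 in PVASCs, and Epyc had 1, 68 and 23. Hapln1, the link protein that ties aggrecan to hyaluronan, had 0, 1 and 6 reads and was not tested.

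Of the bone genes, 16 were tested, of which 10 were higher, 4 lower and 2 not called in PVASCs over Sub-ASCs (median log2 1.22). In Ab-ASCs over Sub-ASCs, 12 were higher and 4 lower (median 1.69), and in PVASCs over Ab-ASCs 4 were higher, 9 lower and 3 not called (median -0.52), beside 70.4%, 75.3% and 56.9% of all genes called and medians of -0.01, -0.03 and -0.06. Ibsp (bone sialoprotein) had no read in any library, and the osteocyte gene Dmp1 had 1, 0 and 0 reads in Sub-ASCs, none in Ab-ASCs and 7, 3 and 15 in PVASCs. Phospho1, a phosphatase of mineralizing cells, had 82, 26 and 64 reads summed over the libraries of Sub-ASCs, Ab-ASCs and PVASCs, and Ifitm5, a membrane protein of osteoblasts, had 53, 13 and 25, both chosen after their values were seen. Col1a1, the main collagen of bone and of fibroblasts in general, was at 3402 ± 97.5 CPM in Sub-ASCs, 5072 ± 117 in Ab-ASCs and 2561 ± 49.98 in PVASCs.

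Mgp, which encodes matrix Gla protein, an inhibitor of mineralization, was at 1.17 ± 0.0125 CPM in Sub-ASCs, 104 ± 12.5 in Ab-ASCs and 656 ± 17.9 in PVASCs, and its log2 fold change over Sub-ASCs was 9.12 ± 0.12 in PVASCs (adjusted p = 1.91e-14) and 6.46 ± 0.11 in Ab-ASCs (adjusted p = 1.48e-13). Ank, which brings pyrophosphate out of the cell, was at 15.98 ± 0.384, 96.2 ± 6.59 and 409 ± 4.23 CPM in the same order. Both had the depot order of Spp1, with PVASCs above Ab-ASCs and Ab-ASCs above Sub-ASCs, whereas Alpl was lowest in PVASCs. Enpp1, which makes pyrophosphate and was chosen after its values were seen, did not have that order and was highest in Ab-ASCs, at 14.9 ± 1.10, 150 ± 6.70 and 76.7 ± 2.06 CPM in Sub-ASCs, Ab-ASCs and PVASCs. Kazald1, a secreted protein with a domain of the insulin-like growth factor-binding kind, was highest in Ab-ASCs, at 70.3 ± 6.44 CPM, against 27.1 ± 0.443 in PVASCs and 4.45 ± 0.224 in Sub-ASCs.

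The pair that controls bone resorption differed in opposite directions. Tnfsf11 (RANKL), the ligand that drives osteoclast formation, was at 44.8, 46.4 and 41.3 CPM in Sub-ASCs, 0.537, 0.622 and 0.624 in Ab-ASCs and 5.01, 3.93 and 4.39 in PVASCs. Its decoy receptor Tnfrsf11b (osteoprotegerin) was at 2.36, 1.14 and 1.49 CPM in Sub-ASCs, 29.3, 40.9 and 39.0 in Ab-ASCs and 24.5, 22.5 and 25.2 in PVASCs. In Ab-ASCs over Sub-ASCs the log2 fold changes were -6.20 ± 0.14 and 4.47 ± 0.20 (adjusted p = 9.47e-13 and 5.06e-10), and in PVASCs over Sub-ASCs -3.31 ± 0.10 and 3.87 ± 0.20 (adjusted p = 1.11e-11 and 2.31e-09). The 8 osteoclast markers summed to 916 to 942 CPM in Sub-ASCs, 83.9 to 103 in Ab-ASCs and 60.0 to 63.0 in PVASCs, of which Ctsk, which fibroblasts also express, made up 896 ± 13.2, 76.3 ± 9.0 and 53.8 ± 1.40 CPM. Of the 5 tested, 4 were lower and 1 was not called in PVASCs against Sub-ASCs, where 70.4% of all genes were called. In Ab-ASCs against Sub-ASCs, 3 were lower, 1 higher and 1 not called, beside 75.3% of all genes called. Acp5 was at 16.2 ± 1.66, 2.82 ± 0.489 and 3.27 ± 0.0955 CPM in Sub-ASCs, Ab-ASCs and PVASCs, and Atp6v0d2 at 10.3 ± 0.412, 2.42 ± 0.357 and 2.04 ± 0.224 CPM. The part of these markers in the levels of Tnfsf11 and Tnfrsf11b was not tested. Calcr, Dcstamp and Ocstamp of the same list had means between 0.01 and 0.21 CPM in all groups.

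Of the lineage regulators, 23 were tested. In PVASCs over Sub-ASCs, 10 were higher, 9 lower and 4 not called (median log2 -0.09). The counts were the same in PVASCs over Ab-ASCs (median 0.16) and were 7, 11 and 5 in Ab-ASCs over Sub-ASCs (median -0.26), beside 70.4%, 56.9% and 75.3% of all genes called and medians of -0.01, -0.06 and -0.03. Cbfb, the partner that Runx2 needs to bind DNA, was at 81.4 ± 2.65, 95.3 ± 7.27 and 106 ± 4.99 CPM in Sub-ASCs, Ab-ASCs and PVASCs, a smaller difference than that of Runx2 itself between Ab-ASCs and Sub-ASCs (log2 0.23 ± 0.07 against 1.04 ± 0.09; the difference of the 2 was not tested). Dlx5 had 9, 0 and 27 reads and was not tested.

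Factors that hold Runx2 back or act beside it were not uniform either. Twist1, which inhibits Runx2, fell from 89.3 ± 4.54 CPM in Sub-ASCs to 65.5 ± 1.77 in Ab-ASCs and 34.4 ± 3.38 in PVASCs, with all 3 differences passing. Trps1, a repressor in growth plate cartilage, was at 19.5 ± 2.45, 12.3 ± 2.40 and 21.8 ± 1.46 CPM. Zbtb16, a zinc finger factor linked to osteogenic differentiation, had 274, 250 and 290 reads in Sub-ASCs, 6, 16 and 14 in Ab-ASCs and 2, 0 and 0 in PVASCs. Pth1r, the receptor of parathyroid hormone, was at 38.5 ± 3.84, 12.8 ± 0.785 and 3.73 ± 0.568 CPM in the same order. Bmp2 was at 6.92 ± 0.545 CPM in Sub-ASCs, 1.39 ± 0.133 in Ab-ASCs and 5.79 ± 0.416 in PVASCs, while Dlx3 and Msx2 were at or under 2.14 CPM in every group.

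Other genes of the Sox family were read too. Sox8, of the same subgroup as Sox9, was highest in Ab-ASCs, at 1.83 ± 0.122 CPM, against 0.12 ± 0.00751 in Sub-ASCs and 0.388 ± 0.125 in PVASCs. Sox10, the third of the subgroup and a factor of the neural crest and glia, was at 11.3, 13.0 and 11.5 CPM in PVASCs, 0.515, 0.904 and 0.496 in Sub-ASCs and 0.268, 0.400 and 0.0892 in Ab-ASCs (log2 4.21 ± 0.21 and 5.54 ± 0.26 in PVASCs; adjusted p = 2.19e-09 and 5.80e-09). The 8 Schwann and glial markers, which include Sox10 itself, summed to 13.8 to 14.9 CPM in Sub-ASCs, 4.27 to 5.48 in Ab-ASCs and 36.1 to 39.8 in PVASCs, where Sox10 alone had a mean of 11.9 CPM. Of the 7 that were tested, 5 were higher, 1 lower and 1 not called in PVASCs over Sub-ASCs, beside 70.4% of all genes called. Over Ab-ASCs, 6 were higher and 1 not called, beside 56.9% of all genes called. The part of these markers in the level of Sox10 was not tested. Sox13, of the subgroup of Sox5 and Sox6, was at 8.65 ± 0.513, 7.77 ± 0.584 and 11.7 ± 1.07 CPM in Sub-ASCs, Ab-ASCs and PVASCs, and Sox4 at 83.2 ± 0.866, 79.1 ± 4.23 and 103 ± 9.22 CPM.

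**Figure D4:**
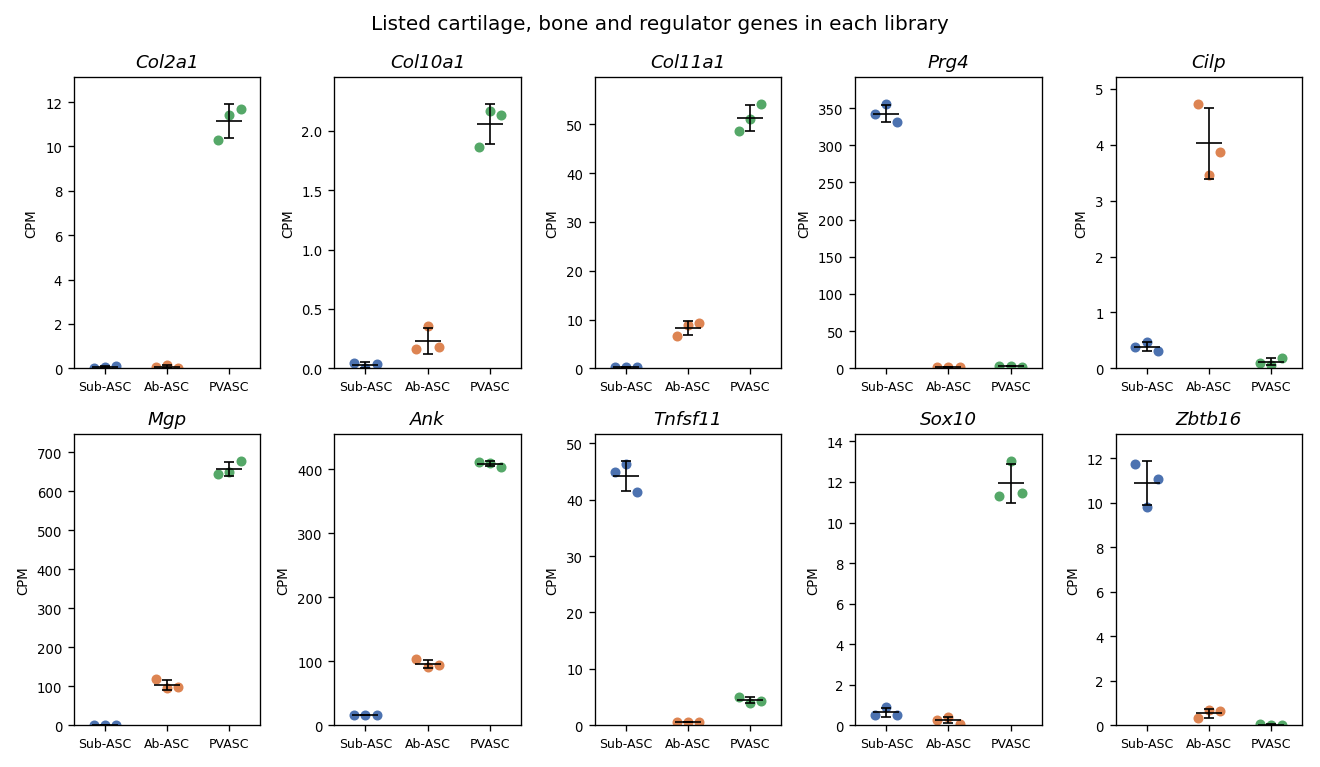
CPM (linear axis from 0, a separate scale for each gene) of 10 listed cartilage, bone and regulator genes in the 9 libraries, with a black line for the mean of 3 libraries and bars for the SD. Col2a1, Col10a1, Col11a1, Mgp, Ank and Sox10 are highest in PVASCs, Prg4, Tnfsf11 and Zbtb16 in Sub-ASCs and Cilp in Ab-ASCs.

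Markers of other cell types also differed between the depots. The 10 mesothelial markers summed to 2.75 to 2.97 CPM in Sub-ASCs, with 3 of them at 0 reads (Lrrn4, Muc16 and Upk1b), to 126 to 135 in Ab-ASCs and to 49.9 to 51.6 in PVASCs, which is the order of Sp7 and Runx2, and also that of the smooth muscle markers. Of the 9 mesothelial markers tested, all 9 were higher in Ab-ASCs than in Sub-ASCs. In PVASCs, 8 were higher and 1 (Krt8) was not called over Sub-ASCs, and 8 were lower and 1 (Krt19) was higher than in Ab-ASCs. The 8 adipocyte markers summed to 3905 to 4185 CPM in Sub-ASCs, 380 to 477 in Ab-ASCs and 177 to 185 in PVASCs. Lpl alone was at 3816 ± 157, 381 ± 50.1 and 109 ± 1.35 CPM, and of the 6 adipocyte markers tested, 3 were higher and 1 lower in PVASCs than in Ab-ASCs. The 8 endothelial markers summed to 189 to 204, 66.6 to 68.0 and 757 to 763 CPM, with 6 higher and 2 lower (Tek and Cldn5) in PVASCs than in Sub-ASCs. Whether any of these had a part in the differences of the 10 genes was not tested.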

How the data were processed

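ASCs of C57BL/6 mice from subcutaneous, abdominal and perivascular adipose tissue were sequenced as 3 libraries per group. The authors deposited raw counts of reads per gene for 54532 genes, with a listed gene length. The submitters' processing notes name CASAVA 1.8, Bowtie 0.12.2, featureCounts 1.5.0-p3, mm8 and mm10, without role or order, and the strand setting was not given in the sources used here. Listed positions equalled GENCODE M21 (GRCm38) for 53585 genes (98.3%). Libraries held 20524173 to 29881036 reads.

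The counts were analysed with edgeR 4.0.16 in R 4.3.3: filterByExpr by group (minimum count 10), TMM, 1 fit of all 9 libraries, the quasi-likelihood F-test and Benjamini-Hochberg adjustment over 16526 genes. The standard error is the absolute log2 fold change divided by the square root of F. The filter and TMM can move the values of genes with few reads. FPKM used the unscaled library totals. DESeq2 1.42.0, RLE size factors, other filters, other sample sets, a fold limit, a replicate block and each library left out were tried. The fit was tested on simulated data.

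The 10 genes and all lists were chosen with earlier results of these data known. Listed genes were named from a fixed set, plus the 4 called genes per list and comparison with the largest absolute log2 fold change, and marker genes by level. Values of some listed genes are not reported here.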

Additional observations from a re-analysis of the deposited data

How the results depend on the processing

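Of 583 values recomputed under 16 settings for 39 results, 543 kept their direction and side of the threshold (or, for counts, stayed within 1.5 times). Requiring at least 10 reads in every library removes low genes. Of the 10 genes, only Sox5, Sox9, Runx2, Alpl and Spp1 were then tested. All 5 were called for PVASCs over Sub-ASCs, 4 for PVASCs over Ab-ASCs and 4 for Ab-ASCs over Sub-ASCs. With this filter, 9528, 7947 and 10203 of 13104 genes were called in this order. The cartilage genes called were 5, 5 and 5, among fewer tested than in the main fit. A limit of 1 on the log2 scale left 3 of the 10 genes, 7 cartilage genes and 5 bone genes in PVASCs against Ab-ASCs. It left 9, 7 and 11 regulators in the 3 comparisons, beside 32.2%, 15.4% and 37.8% of all genes. With each library left out in turn, 8 to 9, 5 to 7 and 5 to 7 of the 10 genes were called. Of the 16858 to 17109 genes then tested, 10954 to 12736, 8294 to 9675 and 11976 to 12714 were called. The counts were 13 to 14, 9 to 11 and 11 to 12 for cartilage genes. They were 14 to 15, 13 to 15 and 16 to 17 for bone genes, and 19 to 23, 18 to 20 and 17 to 21 for regulators.

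Direction reversed only for 2 differences of PVASCs from Ab-ASCs that did not pass: Sox9 (-0.041 without Ab-ASC replicate 1 and -0.025 without PVASC replicate 1, in a range of -0.041 to 0.052 with each library left out) and Comp (a range of -0.30 to 0.17, with 0.05 without Ab-ASC replicate 1, 0.04 without Ab-ASC replicate 2, 0.17 without PVASC replicate 3). Among single genes, 21 values lost the call and 2 gained it, all of them of Acan, Comp, Spp1, Sox6 or Alpl, as given with each gene. The cause was not tested. The replicate numbers did not pair the samples (correlations of -0.051 to 0.095). With the replicate block 9, 7 and 7 of the 10 genes were called, beside 11458, 9183 and 12302 of all 16526 genes tested. Depth limits Bglap, Acan, Comp and, in Sub-ASCs, Sp7, where 0 to 17 reads per library stand behind a value, and Sox6 in Sub-ASCs and Ab-ASCs, with 4 to 13 reads.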
